A study of Mus musculus with 12 samples.

Results

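Serotonin and histamine are amines that mast cells, basophils and platelets hold in granules. The genes described here make, store or break down these amines: Tph1, Ddc, Hdc, Slc18a2, Maoa, Maob, Hnmt, Gch1 and Gchfr. They were chosen by name, as the probe sets that carry the symbol of 1 of these 9 genes and no other symbol in the platform annotation. The choice was made with earlier results of these data known. The rule found 10 probe sets for 7 of the genes, of 28898 single-symbol probe sets for 17097 genes on the array. Slc18a2 and Maoa had no single-symbol probe set in the annotation used here, so no level is given for them. Of the 10 probe sets, 8 passed the filter on dim values, for 6 genes, and both Ddc probe sets did not.

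Each of 4 groups had 3 arrays, with 1 array of total RNA per sample. Ts1Cje Trib1 and B6 Trib1 are mouse acute myeloid leukaemia (AML) cell lines that express Trib1, a pseudokinase known to bring C/EBP alpha to a ubiquitin ligase, and their sample titles add "WT" to Trib1. Ts1Cje and B6 are mouse hematopoietic cells for which no Trib1 expression is labelled. Ts1Cje is a partial trisomy used as a mouse model of Down syndrome, and B6 is labelled wild type. The medium of all 4 groups was IMDM with IL-3 at 5 ng/ml and serum at 10%, and no group was treated. Every comparison of a line with cells therefore joins Trib1 expression with the leukaemic state. The labels do not say how the lines were derived, how many there are, or whether the 3 arrays of a group came from separate cultures, so the p-values cover the spread between arrays alone, and that spread may be technical.

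As background, serotonin is made from tryptophan in a pair of steps. Tryptophan hydroxylase, encoded outside the nervous system by Tph1, carries out the rate-limiting step and needs tetrahydrobiopterin, whose synthesis starts with GTP cyclohydrolase, encoded by Gch1. Gchfr encodes the protein that mediates feedback inhibition of that enzyme. Ddc encodes the decarboxylase that completes serotonin. Hdc encodes histidine decarboxylase, the enzyme that makes histamine. Slc18a2 encodes the transporter that loads both amines into vesicles. Maoa and Maob, neighbours on the X chromosome, encode mitochondrial oxidases of amines, and Hnmt encodes the enzyme that inactivates histamine by methylation. Rodent mast cells store both amines, basophils make histamine, and platelets take serotonin up from plasma through the transporter Slc6a4.

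The promoter windows of Tph1, Gch1 and Hdc are shown because these synthesis genes were all brighter in the lines. The windows are from RefSeq on GRCm38.p6, run 5′ to 3′ from 250 bases before to 50 bases after an annotated start, and capitals mark TGACG or its complement CGTCA, the core of a cAMP response element.
Tph1, upstream start, chr7:46672488-46672787, minus strand: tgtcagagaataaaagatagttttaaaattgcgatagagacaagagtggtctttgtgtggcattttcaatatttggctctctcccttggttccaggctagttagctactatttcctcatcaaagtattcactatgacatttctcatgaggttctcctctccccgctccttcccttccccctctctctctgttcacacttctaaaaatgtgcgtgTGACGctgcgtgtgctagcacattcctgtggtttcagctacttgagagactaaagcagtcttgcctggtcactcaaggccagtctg
Tph1, downstream start, chr7:46667328-46667627, minus strand: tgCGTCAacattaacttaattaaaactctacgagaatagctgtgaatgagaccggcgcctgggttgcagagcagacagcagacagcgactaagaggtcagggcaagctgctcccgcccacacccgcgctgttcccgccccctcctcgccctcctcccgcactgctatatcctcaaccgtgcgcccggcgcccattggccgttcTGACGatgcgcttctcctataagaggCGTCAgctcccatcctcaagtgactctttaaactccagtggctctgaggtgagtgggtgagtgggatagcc
Gch1, chr14:47189364-47189663, minus strand: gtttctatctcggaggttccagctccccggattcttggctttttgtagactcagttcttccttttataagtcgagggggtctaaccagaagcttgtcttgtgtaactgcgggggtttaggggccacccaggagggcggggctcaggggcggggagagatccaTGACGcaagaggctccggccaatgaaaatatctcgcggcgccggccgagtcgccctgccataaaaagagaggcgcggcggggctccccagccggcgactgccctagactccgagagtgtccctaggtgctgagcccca
Hdc, chr2:126618629-126618928, minus strand: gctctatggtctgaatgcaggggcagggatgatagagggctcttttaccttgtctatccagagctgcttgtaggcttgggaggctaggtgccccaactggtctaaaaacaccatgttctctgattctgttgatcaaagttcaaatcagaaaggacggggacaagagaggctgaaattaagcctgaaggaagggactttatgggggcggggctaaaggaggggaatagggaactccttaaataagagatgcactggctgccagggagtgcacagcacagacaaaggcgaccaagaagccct
Both Tph1 windows held the motif, with 1 copy at the upstream start (36 bases before it) and 3 at the downstream start, of which the nearest began 21 bases before the start. The Gch1 window held 1 copy and the Hdc window held 0. Of 32851 RefSeq promoter windows of 300 bases, 20.8% held TGACG on either strand. GATAA, a core recognised by GATA factors, was in 25.4% of all windows and CATGTG, an E-box bound by MITF, in 14.2%, with the complements TTATC and CACATG counted. No copies of different motifs overlapped, and neither of these was in any of the 4 windows shown. A match or its absence describes only these letters. Promoter windows were found for 8 of the 9 genes. Among those not shown, the Slc18a2 window held 1 copy of GATAA and 2 of TGACG, and the Maoa window held 1 of each. The TGACG copies of Slc18a2 lay on opposite strands and overlapped, beginning 4 and 1 bases before the start, so they are not separate sites. The windows of Ddc, Hnmt and Gchfr held none of these motifs.

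Values are intensities on a linear scale, as deposited. The median of an array lay between 30.5 and 31.99 and its maximum between 8041 and 8685. Values at or under an array's 40th percentile, between 21.98 and 23.5, are called dim. Across genes, the log2 values of arrays of the same group correlated at 0.997 to 0.999, and the number of arrays limits the precision. Differences are between means of log2(intensity + 15), which draws dim genes towards 0, and were tested with limma with Benjamini-Hochberg adjustment over all 12560 genes that passed the filter. The threshold was an adjusted p of 0.05. The comparisons of lines with cells and of genotypes share arrays. Group pairs whose arrays do not overlap are common here: this held for 64.3% of genes in Ts1Cje Trib1 against Ts1Cje, 72.6% in B6 Trib1 against B6, 36.4% in Ts1Cje Trib1 against B6 Trib1 and 60.4% in Ts1Cje against B6. Where a gene has a second kept probe set, it was tested in a fit of all 20066 kept probe sets, in which 58.6%, 62.5%, 18.1% and 48.8% passed in the same 4 comparisons and 44% in the interaction.

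**Figure D1:**
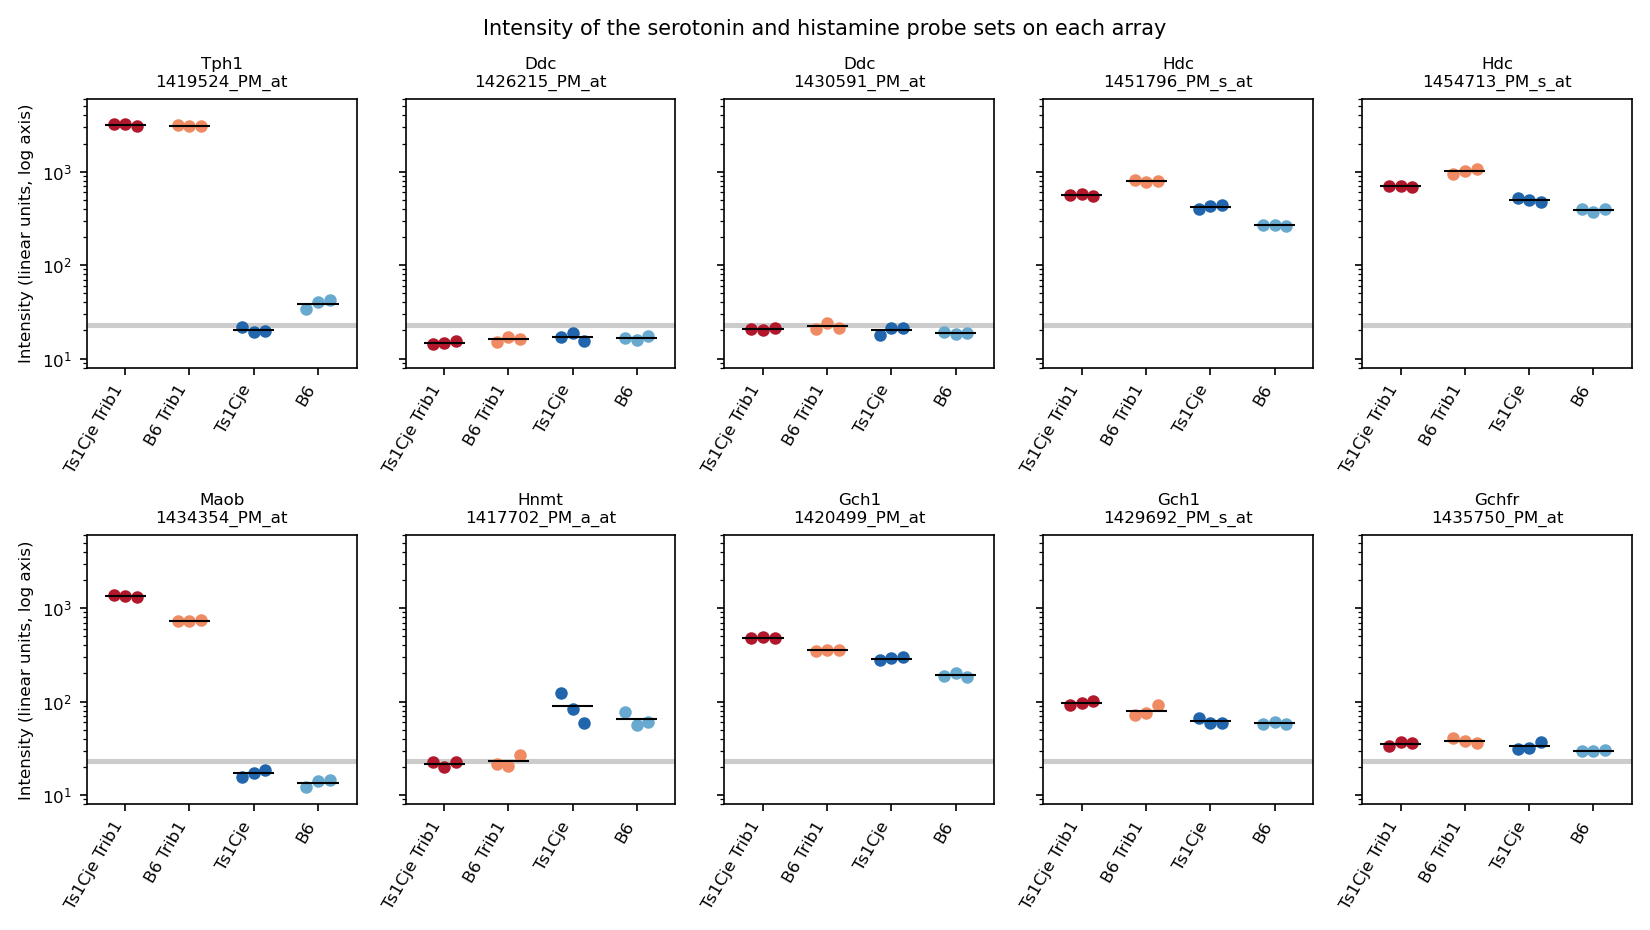
Intensity of each probe set (log axis, linear units) on the 3 arrays of each group, with bars at group means and a grey band over the arrays' 40th percentiles, 21.98 to 23.5. Tph1 and Maob are bright in both Trib1 groups, at 722 to 3234, and not in the cells, and both Ddc probe sets lie at or under the band but for 1 array.

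Among the 6 measured genes, Tph1 of serotonin synthesis showed the widest contrast, and the amine itself was not measured. Tph1 (1419524_PM_at) had intensities of 3197, 3234 and 3078 in the Ts1Cje Trib1 lines, against 22.02, 19.5 and 19.8 in Ts1Cje cells. In the B6 Trib1 lines it had 3119, 3091 and 3083, against 33.9, 40.3 and 42.0 in B6 cells. Every array of a line was far above every array of cells, and in Ts1Cje cells the probe set was dim on all 3 arrays. The Ts1Cje Trib1 lines were at least 139-fold brighter than the dim level of Ts1Cje cells, and the B6 Trib1 lines were 80.0-fold brighter than B6 cells. On the log2 scale Tph1 rose by 6.49 ± 0.05 (SE, limma adjusted p = 1.56e-17) and 5.86 ± 0.05 (adjusted p = 5.62e-17), the largest rise of all genes tested in the Ts1Cje background and the second largest in the B6 background. In these bulk samples a change in the number of cells that express a gene and a change in RNA per cell cannot be told apart.

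Ddc, which acts after Tph1, was dim. Its probe set 1426215_PM_at had group means of 14.8, 16.1, 17.0 and 16.6 in Ts1Cje Trib1, B6 Trib1, Ts1Cje and B6. The means of 1430591_PM_at were 20.8, 22.2, 20.05 and 18.7 in the same order, and on 1 of the 12 arrays, B6 Trib1 replicate 2 with 24.2, it exceeded the 40th percentile. The lines that were bright for Tph1 thus gave no Ddc signal above the dim range on more than 1 array, which does not show that the transcript is absent.

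The cofactor enzyme Gch1 (1420499_PM_at) had 479, 486 and 480 in the Ts1Cje Trib1 lines, against 279, 290 and 300 in Ts1Cje cells. The B6 Trib1 lines had 349, 353 and 356, against 186, 201 and 185 in B6 cells. The 4 groups did not overlap, and their order was Ts1Cje Trib1, B6 Trib1, Ts1Cje and B6 from high to low. Gch1 rose in the lines by 0.71 (limma adjusted p = 2.21e-09) and 0.84 (adjusted p = 5.88e-10). Ts1Cje groups were higher than B6 groups by 0.43 in the lines and 0.57 in the cells (limma adjusted p = 3.69e-06 and 1.35e-07). A dimmer Gch1 probe set, 1429692_PM_s_at, had means of 96.7 and 79.9 in Ts1Cje Trib1 and B6 Trib1, against 61.5 and 58.5 in Ts1Cje and B6. It rose in both lines, by 0.55 and 0.36 (limma adjusted p = 1.23e-05 and 0.000546), and differed by only 0.06 between Ts1Cje and B6 cells (adjusted p = 0.505), so the probe sets disagree on the genotype difference in cells.

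Gchfr (1435750_PM_at), the feedback partner of that enzyme, stayed between 29.6 and 41.1 on all 12 arrays. It rose in B6 Trib1 against B6 by 0.25 (limma adjusted p = 0.000656), with 41.1, 37.8 and 36.2 against 29.6, 29.6 and 30.4. In Ts1Cje Trib1 against Ts1Cje the difference was 0.07 (95% confidence interval -0.03 to 0.18, adjusted p = 0.228), and the arrays of these groups overlapped. Without Ts1Cje replicate 3 that difference was 0.12 and passed (adjusted p = 0.037). Between genotypes Gchfr differed by -0.08 in the lines (adjusted p = 0.33) and by 0.10 in the cells (adjusted p = 0.0959), and the difference in cells passed at 0.13 without Ts1Cje replicate 1 (adjusted p = 0.0473).

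The histamine synthesis gene Hdc differed less between lines and cells than Tph1 did, and its genotype difference changed sign. Hdc (1454713_PM_s_at) had 711, 703 and 686 in the Ts1Cje Trib1 lines, against 518, 500 and 472 in Ts1Cje cells. In the B6 Trib1 lines it had 955, 1011 and 1055, against 394, 374 and 394 in B6 cells. The groups did not overlap and ran from B6 Trib1 through Ts1Cje Trib1 and Ts1Cje to B6. Hdc rose by 0.48 in the Ts1Cje background (adjusted p = 6.23e-07) and by 1.35 in the B6 background (adjusted p = 2.07e-11).

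Between genotypes, Hdc fell by 0.51 in Ts1Cje Trib1 against B6 Trib1 lines (limma adjusted p = 2.93e-06), whereas it rose by 0.35 in Ts1Cje against B6 cells (adjusted p = 3.95e-05). The interaction, the genotype difference in lines minus that in cells, was -0.86 (adjusted p = 2.94e-07). A second Hdc probe set, 1451796_PM_s_at, had means of 562 and 798 in Ts1Cje Trib1 and B6 Trib1, and of 421 and 267 in Ts1Cje and B6. It gave the same directions, with -0.49 between lines, 0.63 between cells and an interaction of -1.12 (adjusted p = 1.18e-08 over 20066 probe sets). The identifiers of both Hdc probe sets end in _s_at, which marks probes shared by several transcripts.

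The breakdown enzymes moved apart. Maob (1434354_PM_at) had 1382, 1365 and 1315 in the Ts1Cje Trib1 lines, against 15.8, 17.0 and 18.5 in Ts1Cje cells. In the B6 Trib1 lines it had 722, 732 and 742, against 12.2, 14.1 and 14.6 in B6 cells. All 6 arrays of cells were dim, and the lines were at least 59.3-fold and 33.1-fold brighter than the dim level in the Ts1Cje and B6 backgrounds. The log2 rises of 5.41 and 4.71 (adjusted p = 1.56e-17 and 6.39e-17, limma) ranked 4 and 6 among the 12560 genes. Maob passed the filter through the lines alone, where it was bright, so these p-values and ranks are a description only. Maob was also 1.85-fold brighter in Ts1Cje Trib1 than in B6 Trib1 lines, a rise of 0.87 (adjusted p = 9.63e-09) that ranked 27 in that comparison.

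Hnmt (1417702_PM_a_at), which inactivates histamine, moved the other way. It had 22.7, 20.1 and 22.5 in the Ts1Cje Trib1 lines, against 125, 83.2 and 59.3 in Ts1Cje cells. The B6 Trib1 lines had 21.6, 20.7 and 26.8, against 78.2, 56.9 and 60.4 in B6 cells. The lines lay in or near the dim range and below every array of cells, and the 3 Ts1Cje arrays were widely spread. Hnmt fell, with differences of -1.46 (limma adjusted p = 4.66e-06) and -1.07 (adjusted p = 0.000109). It passed the filter through the cells alone, so these p-values are a description only. Between Ts1Cje Trib1 and B6 Trib1 lines the difference was -0.05 (95% confidence interval -0.41 to 0.32, adjusted p = 0.891). In Ts1Cje against B6 cells it was 0.34 (95% confidence interval -0.03 to 0.71, adjusted p = 0.109), and without Ts1Cje replicate 3 it was 0.56 and passed (adjusted p = 0.00575). Its interaction was -0.39 (adjusted p = 0.198), and passed at -0.60 without Ts1Cje replicate 3 (adjusted p = 0.0193), while it was -0.15 without Ts1Cje replicate 1.

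**Figure D2:**
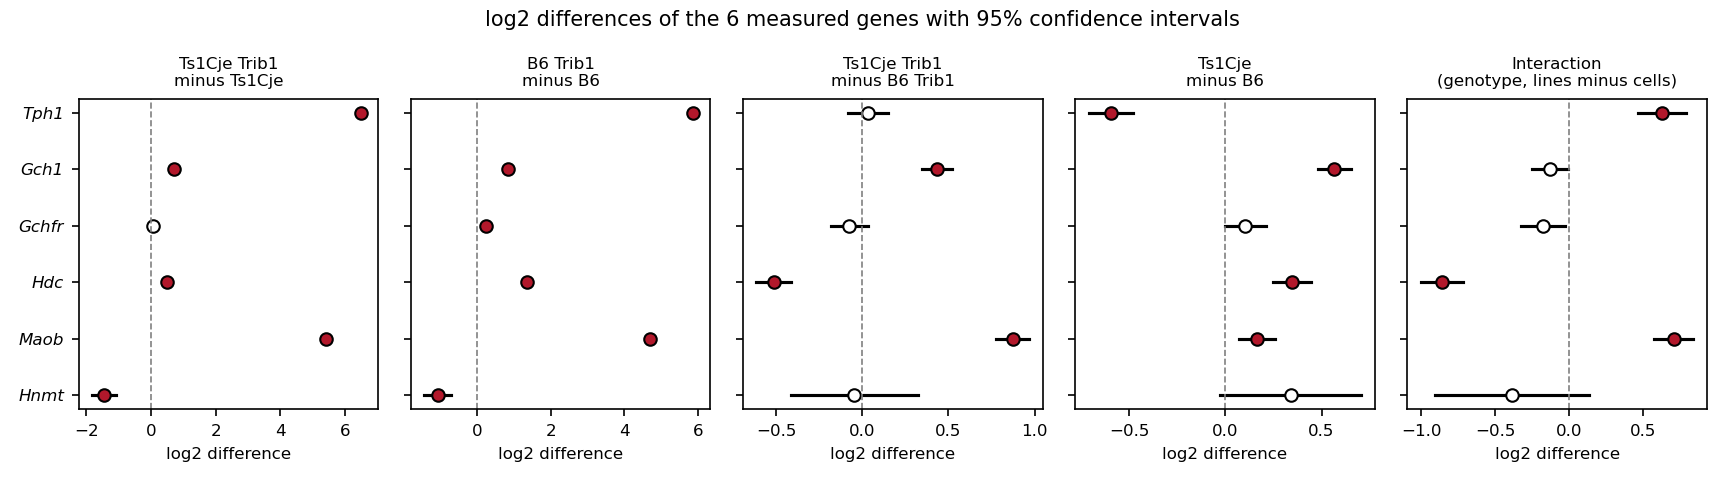
log2 differences (points) with 95% confidence intervals (bars) of the 6 measured genes in the 4 comparisons and the interaction; filled points passed at an adjusted p under 0.05, and the horizontal scales differ between panels. Hdc lies at -0.51 between the lines and at 0.35 between the cells.

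Of the 6 measured genes, 4 rose and 1 fell in Ts1Cje Trib1 against Ts1Cje, where 60.9% of all genes tested passed (34.1% higher and 26.8% lower). In B6 Trib1 against B6, 5 rose and 1 fell, where 65.2% passed (34.1% higher and 31.1% lower). The median differences of the 6 genes were 0.60 and 1.09, and those of all genes were 0.02 and 0.03. These counts are a description only, because Maob passed the filter through the lines alone and Hnmt through the cells alone.

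The sizes of the Tph1 and Maob differences place them at the edge of all genes, as the plot of all genes shows. Over the 4 groups, the means of Tph1 and Maob spanned 6.49 and 5.58 log2 units, which ranked 4 and 10 among 12560 genes. Gchfr ranked 7465 with 0.25. Maob entered these 12560 genes through the lines alone, where it was bright, so its place at the edge is a description only.

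**Figure D3:**
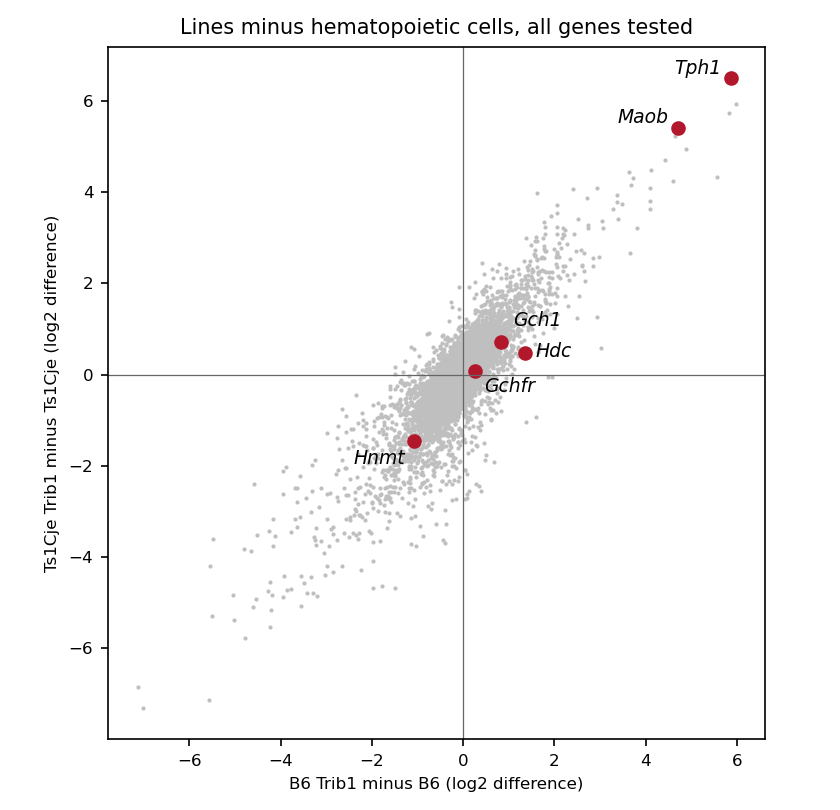
log2 difference of each of 12560 genes between lines and cells, in the B6 background (horizontal axis) and the Ts1Cje background (vertical axis); grey points are genes and red points the 6 measured amine genes. Tph1 (5.86 and 6.49) and Maob (4.71 and 5.41) lie at the upper right edge, and Hnmt lies below 0 on both axes.

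Between the lines of both genotypes, Maob and Gch1 rose and Hdc fell, and 3 of the 6 genes thus passed where 21.5% of all genes did (11.9% higher and 9.63% lower). Tph1 differed by 0.03 between Ts1Cje Trib1 and B6 Trib1 (95% confidence interval -0.08 to 0.15, limma adjusted p = 0.733), and its arrays overlapped between these lines. Between Ts1Cje and B6 cells 3 rose and 1 fell, where 52.6% of all genes passed (23.3% higher and 29.3% lower). Those rises were of Gch1, Hdc and Maob, but Maob was dim in both groups of cells (17.1 against 13.6 on average) and its 0.17 there has no usable fold. Tph1 fell by 0.60 (adjusted p = 1.13e-06) with a dim mean of 20.4 in Ts1Cje cells, against 38.7 in B6 cells, which was at least 1.69-fold lower. The medians of the 6 genes were -0.01 between lines and 0.25 between cells, against medians of all genes that were within 0.01 of 0.

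The interaction passed for 3 of the 6 genes, where 48.6% of all genes passed (28.4% above 0 and 20.2% below). Beside Hdc, it was 0.71 for Maob (adjusted p = 1.1e-06) and 0.63 for Tph1 (adjusted p = 1.92e-05). Maob was dim in both groups of cells, and Tph1 in Ts1Cje cells. Maob passed the filter through the lines alone, so the count of 3 and its interaction are a description only. That of Gch1 was -0.13 (adjusted p = 0.0697) and reversed to 0.18 with the other probe set, and that of Gchfr was -0.18 (adjusted p = 0.0504). Without Ts1Cje replicate 1 both passed, at -0.16 for Gch1 and -0.21 for Gchfr (adjusted p = 0.034 and 0.0256). That of Gch1 also passed without B6 replicate 2 (-0.17, adjusted p = 0.0271), and that of Gchfr without B6 Trib1 replicate 3 (-0.21, adjusted p = 0.0308) or Ts1Cje replicate 2 (-0.20, adjusted p = 0.0479).

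The genes around these enzymes were taken from lists of the pathway. Their counts are a description, to be read beside the shares of all genes. These were 60.9% in the Ts1Cje background (34.1% higher and 26.8% lower) and 65.2% in the B6 background (34.1% higher and 31.1% lower). For tetrahydrobiopterin, 2 of 4 measured genes rose and 1 fell in each line against its cells. Pts, the synthase after Gch1, rose by 0.57 and 0.42 in the Ts1Cje and B6 backgrounds (limma adjusted p = 1.18e-07 and 3.26e-06). Its means were 720 ± 7.35 and 727 ± 26.3 in Ts1Cje Trib1 and B6 Trib1, against 482 ± 26.6 and 539 ± 21.5 in Ts1Cje and B6 (SD, n = 3 each). Spr, the reductase of the last step, fell (-0.29 and -0.38), and Pcbd1, which recycles the cofactor, rose by 0.17 and 0.18. For pyridoxal phosphate, the cofactor of Ddc and Hdc, the kinase Pdxk fell (-0.54 and -0.22) and the phosphatase Pdxp rose by 0.92 and 0.46.

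Among transporters, Slc6a4, which carries serotonin into cells, averaged 383 ± 30.5 in Ts1Cje Trib1 and 389 ± 9.49 in B6 Trib1 lines, against 22.4 ± 2.79 and 23.7 ± 4.55 in Ts1Cje and B6 cells (SD, n = 3 each). It rose by 3.41 and 3.39 (limma adjusted p = 2.65e-13 and 5.68e-13) and differed by -0.02 between the lines and -0.04 between the cells, neither of which passed. The cells lay near the dim range for Slc6a4, which limits what can be read of the size of its rise and of its difference between cells. Of the 5 measured transporters, 1 rose and 2 fell in the Ts1Cje background and 3 rose and 1 fell in the B6 background. Among all genes 60.9% and 65.2% passed in the same comparisons. Slc22a4, a carrier of organic cations and ergothioneine, fell (-0.43 and -0.28), to dim means of 13.5 and 15.97 in Ts1Cje Trib1 and B6 Trib1, against 23.5 and 22.5 in Ts1Cje and B6. It passed the filter through the cells alone, where it lay near the dim range. Its fall and its place in the transporter counts are therefore a description only.

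Of 4 histamine receptor genes, 2 and 3 rose in the Ts1Cje and B6 backgrounds. Hrh4, the receptor typical of hematopoietic cells, had means of 110 ± 11 in Ts1Cje Trib1 and 74.3 ± 7.78 in B6 Trib1, against 27.9 ± 3.23 in Ts1Cje and 25.4 ± 1.77 in B6. It rose by 1.54 and 1.14 and was higher by 0.48 in Ts1Cje Trib1 than in B6 Trib1 (limma adjusted p = 0.000416). Of 7 measured serotonin receptor genes, 1 rose and 1 fell in the Ts1Cje background and 5 rose and 1 fell in the B6 background. Among all genes 34.1% rose in each background. In B6 cells 2 of the 7 were dim on all 3 arrays. Of those that rose in B6 Trib1 against B6, Htr1a (24.9 against 20.8) and Htr1d (26.4 against 21.9) lay near the dim range. Htr3a (47.0 against 38.6) lay above it. Htr7 was the gene that fell (-0.73 and -0.83), and no serotonin receptor gene that rose did so by more than 0.21.

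Of 11 measured genes that supply or divert tryptophan and histidine, 3 rose and 6 fell in the Ts1Cje background (median -0.20). In the B6 background 4 rose and 6 fell (median -0.30). Among all genes 34.1% rose in each background, and 26.8% and 31.1% fell. Il4i1, an amino acid oxidase that can use tryptophan, averaged 48.4 ± 3.91 in Ts1Cje Trib1 and 37.8 ± 2.3 in B6 Trib1, against 399 ± 40.8 in Ts1Cje and 562 ± 13.8 in B6, and fell (-2.70 and -3.45, limma adjusted p = 4e-13 and 7e-14). Kmo and Kynu of the kynurenine pathway fell (-0.98 and -0.94 in the Ts1Cje background, -0.76 and -0.37 in the B6 background). Haao of the same pathway rose in the Ts1Cje and B6 backgrounds (0.37 and 0.43), and so did Slc7a8 (0.82 and 0.74) and Hal (0.30 and 0.81). Slc15a3, an endolysosomal carrier of histidine and peptides, fell (-2.74 and -1.84).

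Another list was of heparin and serglycin, the anionic granule matrix that holds amines in mast cells. Of its 7 measured genes, 4 rose and 2 fell in the Ts1Cje background, and 3 rose and 2 fell in the B6 background. Among all genes 60.9% and 65.2% passed in these comparisons. Ndst2, an N-sulfotransferase needed for mast cell heparin, averaged 507 ± 56.7 in Ts1Cje Trib1 and 435 ± 34.1 in B6 Trib1, against 173 ± 21.5 and 151 ± 3.73 in Ts1Cje and B6. It rose by 1.47 and 1.43, whereas Ext1, which elongates the heparan chain, fell (-1.13 and -1.06, limma). Srgn, which encodes serglycin, was bright in all 4 groups and rose by only 0.30 and 0.21. Its means were 7430 and 6821 in Ts1Cje Trib1 and B6 Trib1, against 6054 and 5880 in Ts1Cje and B6. Of other enzymes that act on amines or their products, 1 of 7 rose and 2 fell in the Ts1Cje background and 4 rose and 1 fell in the B6 background. Aldh2, which oxidises the aldehydes that monoamine oxidases release, rose by 0.27 and 0.82, and Aldh1b1, another aldehyde dehydrogenase, fell (-0.996 and -0.92).

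**Figure D4:**
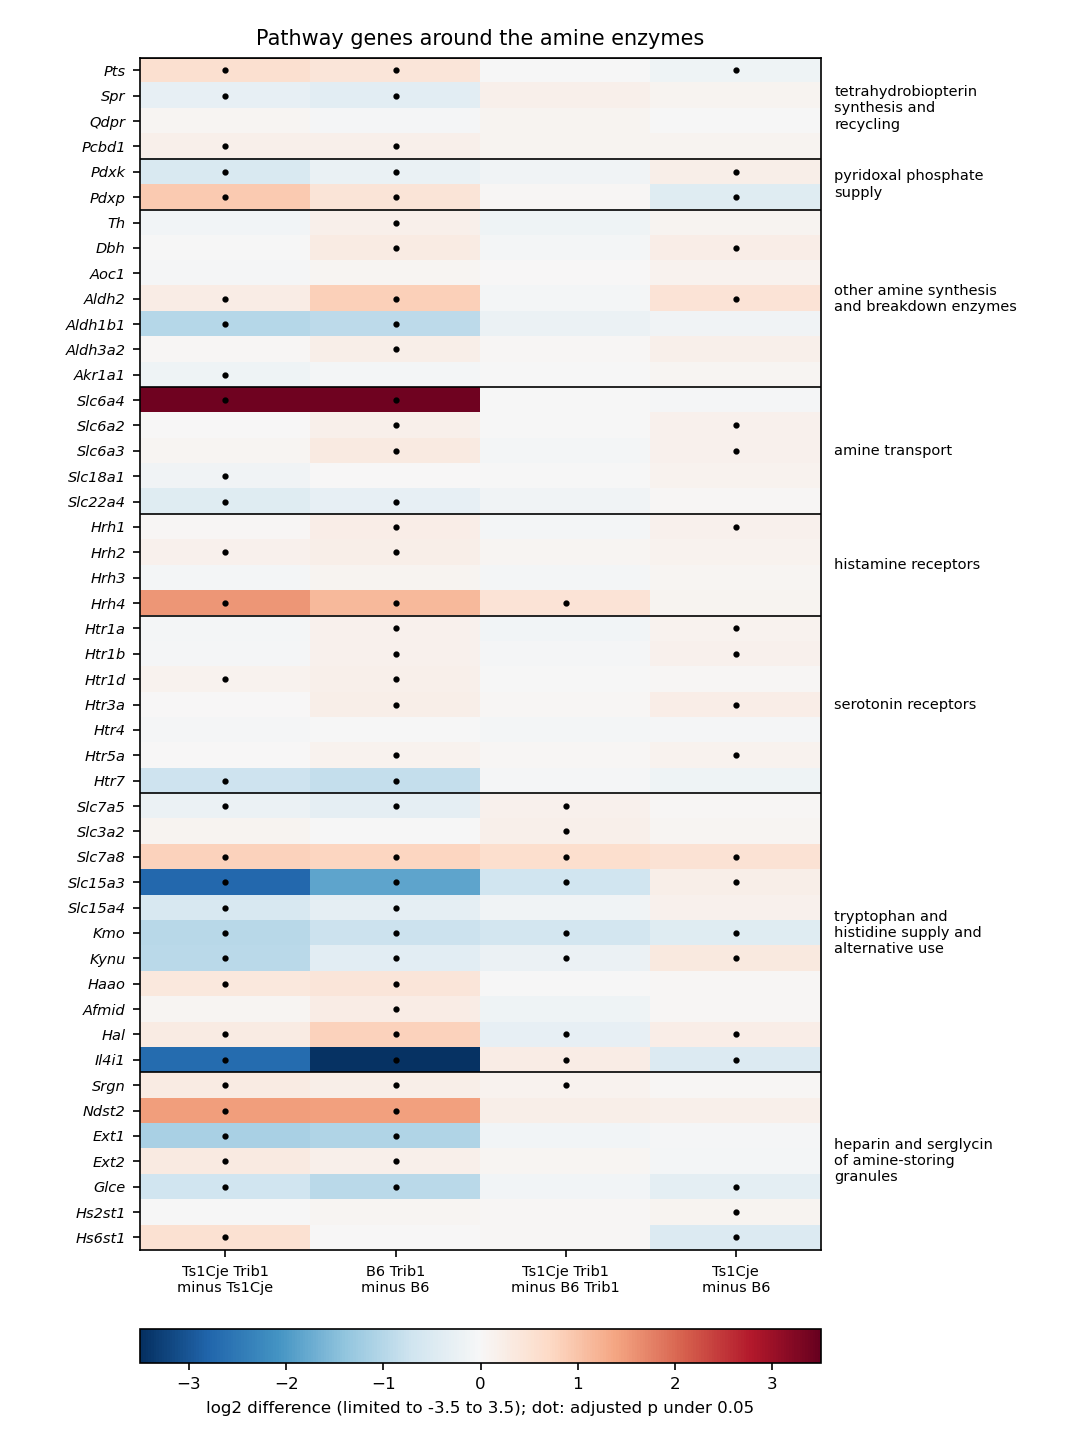
log2 differences of the measured genes of 8 pathway lists (rows) in the 4 comparisons (columns), as colour from -3.5 to 3.5, with a dot where the adjusted p was under 0.05. Slc6a4 stands out in the columns of lines against cells (3.41 and 3.39), and between the lines most genes that pass belong to the tryptophan and histidine list.

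Markers of cell types that hold these amines moved with the lines. For the marker counts that follow, 34.1% of all genes rose in each background, and 26.8% and 31.1% fell in the Ts1Cje and B6 backgrounds. Of 8 measured mast cell markers, 6 rose in the Ts1Cje background and 8 in the B6 background, and 0 fell. Their summed intensity ranged from 9870 to 10258 in Ts1Cje Trib1 and from 9623 to 9974 in B6 Trib1, against 1333 to 1380 in Ts1Cje and 1212 to 1249 in B6. Most of that sum in the lines, but not in the cells, was Cpa3, carboxypeptidase A3, with means of 7813 ± 139.7 and 7471 ± 166 in the lines, against 399 ± 20.1 and 296 ± 19.5 in the cells. The chymase Cma1 rose by 4.31 and 3.72, but the mast cell proteases Mcpt1, Mcpt2 and Mcpt4 did not pass the filter, with highest group means of 10.2, 23.1 and 15.7.

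Of 6 basophil markers, 5 and 6 rose in the Ts1Cje and B6 backgrounds, with sums from 8294 to 8839 and from 8169 to 8286 in the lines, against 3677 to 3917 and 2275 to 2323 in the cells. All 7 markers that mast cells and basophils share rose in both backgrounds. Fcer1a, of the IgE receptor, averaged 5231 ± 102 in Ts1Cje Trib1 and 2755 ± 13.4 in B6 Trib1, against 246 ± 22.7 in Ts1Cje and 43.9 ± 2.67 in B6, and Gata2, a factor of both cell types, rose by 2.16 and 2.07. All 6 measured megakaryocyte and platelet markers rose in both backgrounds too, with sums from 11064 to 11769 and from 13241 to 13564 in the lines, against 6098 to 6287 and 6895 to 7163 in the cells. Most of that sum in the cells, but not in the lines, was Pf4, with means of 3945 and 4255 in Ts1Cje and B6. Pf4 rose by only 0.13 and 0.12 in the Ts1Cje and B6 backgrounds. The part of these cell types in the Tph1, Maob, Hdc and Slc6a4 results was not tested.

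Markers of other myeloid cells also differed between the groups. All 10 neutrophil markers fell in the Ts1Cje background, and 1 rose and 9 fell in the B6 background, with sums from 16121 to 16709 in Ts1Cje Trib1 and 27619 to 27908 in B6 Trib1, against 44895 to 45635 in Ts1Cje and 32940 to 33336 in B6. Of 7 monocyte and macrophage markers, 1 rose and 6 fell in the Ts1Cje background, and 3 rose and 4 fell in the B6 background, where Ccr2, Cd14 and Adgre1 rose (1.69, 0.49 and 0.19). Their sums ranged from 2155 to 2174 and 3590 to 3757 in the lines, against 7074 to 7307 and 4822 to 4942 in the cells. Mpo, a defining myeloid granule enzyme, was still bright in the lines (means of 1115 and 2964, against 4617 and 4128 in Ts1Cje and B6). Eosinophil, erythroid, and B and T cell markers had medians of -0.45, 0.29 and -1.41 in the Ts1Cje background and of 0.87, 0.43 and -1.98 in the B6 background. Of 4 eosinophil markers, 1 rose and 2 fell in the Ts1Cje background, and 2 rose and 0 fell in the B6 background. Of 4 erythroid markers, 2 and 3 rose in the Ts1Cje and B6 backgrounds and 0 fell. Of 7 B and T cell markers, 6 fell and 0 rose in each background. Between the lines, where Hdc fell in Ts1Cje Trib1 against B6 Trib1, 10 of 10 neutrophil, 3 of 4 eosinophil and 4 of 6 megakaryocyte and platelet markers also fell, and no member of these lists passed as higher. In the same comparison 5 of 7 monocyte and macrophage markers fell and 1, C1qa, rose by 0.32 (limma adjusted p = 0.000138). Of mast cell markers 2 rose and 3 fell, and of basophil markers 2 rose and 1, Mcpt8, fell. Of the 7 markers that mast cells and basophils share, 5 rose and 0 fell, and Fcer1a was higher by 0.92. Among all genes 11.9% rose and 9.63% fell between the lines. The part of these lists in the Hdc difference was not tested.

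**Figure D5:**
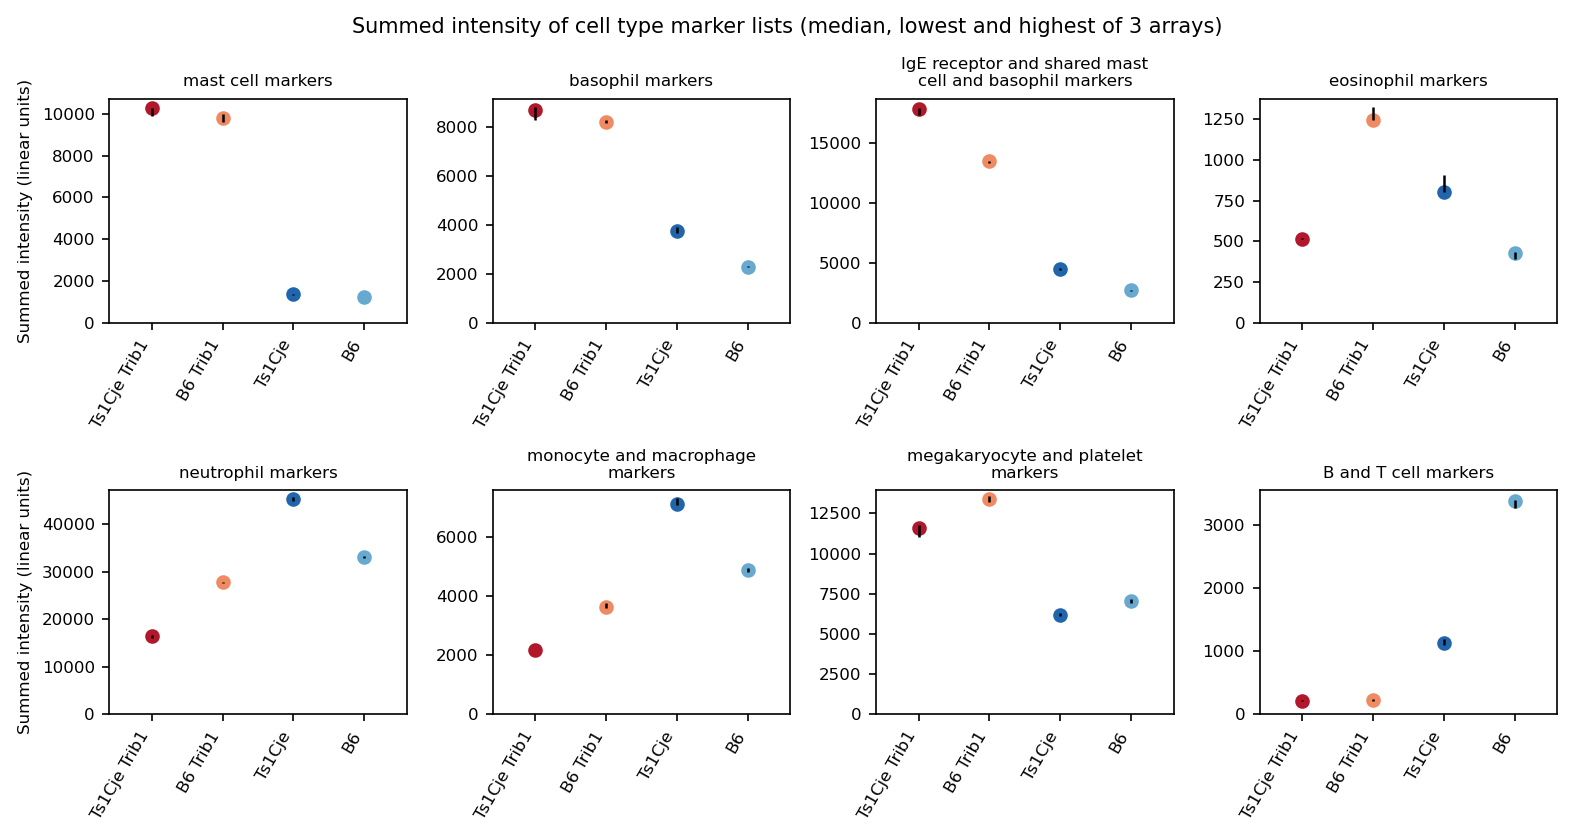
Summed intensity (linear units) of 8 lists of cell type markers in each group; points are medians and bars run from the lowest to the highest of 3 arrays. Mast cell, basophil, shared and platelet lists are higher in both Trib1 lines, and neutrophil and monocyte lists are higher in the cells.

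The genes with the most similar profiles were those with the smallest root mean square difference from a member over the 12 arrays, after each log2 profile was centred on its own mean. They are a description and rest on 4 group levels. For Tph1 the nearest were Mycn (0.32 log2 units), with means of 3883 and 3742 in Ts1Cje Trib1 and B6 Trib1, against 50.1 and 45.2 in Ts1Cje and B6, then Pga5 (0.33) and Tmtc2 (0.67). For Maob they were Tmtc2 (0.18), the basophil marker Cd200r3 (0.24) and Perp (0.37). Cd200r3 averaged 1875 and 1232 in Ts1Cje Trib1 and B6 Trib1, against 47.4 and 27.2 in Ts1Cje and B6, so it shared with Maob the higher level in the Ts1Cje Trib1 lines. For Hdc they were Cyp4f18 (0.08), Cd300a (0.12) and Vcl (0.13), for Gch1 Rapgef2, Oas1g and Samd9l (0.11, 0.11 and 0.12), and for Hnmt P2ry10b, Fas and N4bp1 (0.17, 0.17 and 0.18). Gchfr spanned too little for such a comparison.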

How the data were processed

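The deposited values were probe set intensities on a linear scale, 1 array per sample, for 45141 probe sets. The submitters' processing notes credit them to MAS5, while the identifiers mark perfect-match probes alone, so summarisation and scaling are not settled, and no further scaling was applied. No genome build is given in the sources used here. Members and gene lists were chosen with earlier results of these data known.

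Symbols came from the platform annotation, updated through Entrez identifiers: 28898 probe sets had 1 symbol, 551 several and 15588 none, and 104 were controls. A single-symbol probe set was kept when it exceeded its array's 40th percentile on at least 3 arrays (20066 probe sets, 12560 genes). A gene was represented by its kept probe set of highest mean intensity. The offset of 15 is the rounded 20th percentile of all values. limma 3.58.1 in R 4.3.3 fitted 1 mean per group to all 12 arrays, after the fit was tested on simulated data. Tests were two-sided.

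Named genes were all members, up to 4 non-overlapping genes of smallest adjusted p per list, and the 3 nearest profiles of each member spanning at least 1 log2 unit, and the text gives a subset. Megakaryocyte, eosinophil, erythroid and lymphoid lists are given mainly by counts or medians. Genes outside this rule (Mcpt1, Mcpt2, Mcpt4, Ccr2, Adgre1, Haao, Slc7a8, Hal, Srgn, Pf4) were named after their values were seen. Bounds of the form "at least" set the brighter mean against the higher of the dim value and the 40th percentile. Alternatives were other scalings, offsets, filters, probe set rules, variance models, the groups compared alone, the replicate number as a block, and each array left out.

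Arrays that share a replicate number were not treated as pairs, since their departures from the group means correlated at -0.45 to 0.35.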

Additional observations from a re-analysis of the deposited data

Results flagged for a closer look

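The genotype difference of 3 genes differed between lines and cells by limma's interaction term, with Benjamini-Hochberg adjustment over 12560 genes. For Hdc the interaction was -0.86 (adjusted p = 2.94e-07), with all 3 Ts1Cje Trib1 arrays below all 3 B6 Trib1 arrays and all 3 Ts1Cje arrays above all 3 B6 arrays. For Maob it was 0.71 (adjusted p = 1.1e-06), with Ts1Cje Trib1 above B6 Trib1 on all arrays (1315 to 1382, against 722 to 742) and both groups of cells dim. Maob passed the filter through the lines alone, so this interaction is a description only. For Tph1 it was 0.63 (adjusted p = 1.92e-05), with lines that overlapped and Ts1Cje cells that were dim, below B6 cells on all arrays. Among all genes, 48.6% passed this term.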

How the results depend on the processing

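Each of the 704 differences of a member under an alternative was compared with its reported value: 686 kept their direction and their side of the threshold, 1 lost its call, 14 gained one and 3 turned direction. The calls of Tph1, Maob and Hdc were kept in every alternative that measured them, and leaving out cross-hybridizing probe sets removed Hdc. With an offset of 1 the rises of Tph1 were 7.21 and 6.29, and those of Maob 6.23 and 5.65. Gch1 lost its call in Ts1Cje against B6 with its other probe set (0.06), and its interaction was 0.026 when its probe sets were averaged and 0.18 with the other. Hnmt in Ts1Cje Trib1 against B6 Trib1 lay between -0.091 and 0.022 with each array left out, and turned to 0.022 without B6 Trib1 replicate 3. Its difference in Ts1Cje against B6 was 0.56 without Ts1Cje replicate 3 and 0.40 with quantile normalization (adjusted p = 0.00575 and 0.049, limma). The interaction of Gch1 passed with quantile normalization (-0.24), and that of Gchfr with an offset of 1 (-0.25), a floor (-0.26) and averaged probe sets (-0.18). With every kept probe set tested on its own, 11765 and 12532 probe sets passed in the Ts1Cje and B6 comparisons of lines with cells, against 7644 and 8193 genes, because more features were tested. With each array left out in turn, between 3 and 5 members passed the interaction, and the 5 came without Ts1Cje replicate 1, when Gch1 and Gchfr also passed. With the replicate number as a block, 5, 6, 3 and 4 members passed the pairwise comparisons and 3 the interaction, as without it, and no call of a member changed. Same-numbered arrays resembled their own number best in 3 of 12 cases, so the numbers were not taken as pairs. Dim values limit what can be read of Ddc in all groups, of Maob in cells, of Tph1 in Ts1Cje cells and of Hnmt in lines.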

Other observations

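A probe set that carries the symbols of both Slc18a2 and its neighbour Pdzd8 on chromosome 19 was outside the rule, and its signal cannot be assigned to either gene. It had intensities of 2666, 2597 and 2453 in the Ts1Cje Trib1 lines, against 232, 176 and 214 in Ts1Cje cells. In the B6 Trib1 lines it had 1964, 1959 and 2086, against 378, 364 and 351 in B6 cells. In a separate fit of the 28543 probe sets that passed the filter on dim values whatever their number of symbols, it was higher in the lines by 3.55 and 2.41 (limma adjusted p = 1.46e-13 and 1.31e-11). Between genotypes it was higher by 0.36 in the lines and lower by 0.78 in the cells, where the log2 difference was -0.78 (adjusted p = 0.00573 and 3.77e-06).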
